A study of Mus musculus with 12 samples.

Results

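Integrins, laminins and the proteins that link basement membranes form the layer through which heart cells hold on to their matrix, and their mRNAs were followed here in the left ventricle of mice with heart failure with preserved ejection fraction (HFpEF). The members were taken by gene symbol: every integrin α or β chain, including the integrin-like gene Itgbl1, every laminin α, β or γ chain, the nidogens Nid1 and Nid2, perlecan (Hspg2), agrin (Agrn) and dystroglycan (Dag1). Of the 29564 genes in the deposited tables, 44 met this rule, namely 28 integrin genes, 11 laminin chains and 5 others. Poly(A) RNA of 12 wild-type C57BL6 mice was sequenced as 12 libraries, 4 in each of 3 groups. Control-Veh mice were non-failing and received vehicle (libraries C1 to C4). HFpEF-Veh mice had received a high-fat diet with L-NAME, an inhibitor of nitric oxide synthase, and then vehicle (V1 to V4). HFpEF-TYA-018 mice had the same diet and L-NAME and were given TYA-018, which inhibits the deacetylase HDAC6, orally at 15 mg/kg (T1 to T4). The series title speaks of 1 dose while the treatment protocol in the labels describes daily dosing over weeks, and the title, which matches the study's account of hearts taken hours after dosing, was followed. The study's methods describe its purchased C57BL/6J mice as male. No age at tissue collection is given in the labels.

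An integrin is a pair of an α and a β chain that spans the cell membrane, and the pair decides which matrix protein the cell can hold. Laminins are trimers of an α, a β and a γ chain that polymerise into the sheet of the basement membrane. Nidogen and perlecan tie that sheet to the network of type IV collagen, and dystroglycan on the cell surface holds laminin from the other side and is coupled to dystrophin within the cell. In the heart the basement membrane surrounds every cardiomyocyte and lines every capillary, and the β1 integrins and dystroglycan of the cardiomyocyte are known to carry force between the contractile apparatus and the matrix.

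Values are CPM, the share of the library's estimated counts in parts of 1e6, after scaling by the trimmed mean of M values, given as mean ± SD with n = 4. A gene was called when its adjusted p over all 14333 genes tested was under 0.05 in edgeR's two-sided quasi-likelihood test. Total estimated counts were between 61.2 and 83.9 M (M for 1e6) per library, and the 44 members together took between 0.1895% and 0.232% of them. Cell composition markers moved with the groups. Summed endothelial markers ran from 743 to 855 CPM among controls, from 899.6 to 1093 CPM among vehicle-treated HFpEF hearts and from 713 to 887 CPM after TYA-018, and the fibroblast sum lay at 575 to 970.1, 901 to 1302 and 596 to 928 CPM. The smooth muscle and pericyte sum was 842 to 962, 971 to 1067 and 759 to 934 CPM in the same groups. Of its 9 markers only Rgs5 was called higher in the model, and their median log2 fold change was -0.062. The macrophage and leukocyte sum was 112 to 144, 166 to 223 and 129 to 159 CPM, and 5 of 7 cardiomyocyte markers were called lower and 1 above control in the model. The red cell marker sum was 1553 to 2309 CPM among controls, 4785 to 14140 CPM among vehicle-treated HFpEF hearts and at most 3572 CPM after TYA-018. Mitochondrially encoded genes held 37.0% to 40.6% of counts in Control-Veh, 43.1% to 47.7% in HFpEF-Veh and 35.4% to 41.3% in HFpEF-TYA-018. In whole tissue, a larger number of cells of a type cannot be told apart from more RNA in each. Library C1 stood apart among the controls: it was the highest of the 4 for 24 and the lowest for 9 of the 41 members tested, and its cardiomyocyte marker sum was 25240 CPM against 30880 to 34400 CPM in C2 to C4. The part of cell composition and of C1 in the results was not tested, and the calls that changed without a library are given beside each gene.

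Across the family, the model moved 18 of the 41 members that passed the filter on low counts, and most of these were higher. In HFpEF-Veh against Control-Veh, 13 members (31.7%) were called higher, where 10.9% of all genes tested were called higher. A further 5 (12.2%) were called lower, against 10.3% of all genes. The median log2 fold change was 0.25 over the members and -0.011 over all genes. In HFpEF-TYA-018 against HFpEF-Veh, 2 members (4.88%) were called higher against 8.93% of all genes, and 8 (19.5%) were called lower against 10.4% of all genes. The median log2 fold change was -0.27 over the members and 0.0020 over all genes. In HFpEF-TYA-018 against Control-Veh, 1 member was called higher and 1 lower (2.44% each), against 3.12% and 2.74% of all genes. The comparisons share groups, since HFpEF-Veh enters the first and the second, and so their values are set side by side without a test between them. Without C4 the 13 higher calls in the model became 6, while those of all genes went from 1561 to 1067. Without V3, T1 or T2 the 8 lower calls after TYA-018 became 5, and the 1487 of all genes became 1050, 833 and 899. With the deposited lengths as offset, 8 members were called higher and 1 lower in the model and 3 higher and 1 lower after TYA-018. Over all genes this setting called 809 higher and 636 lower in the model, and 565 higher and 652 lower after TYA-018. With log2(TPM + 1), 0 members were higher and 1 lower in the model and 3 higher and 0 lower after TYA-018. Over all genes that scale called 51 higher and 121 lower in the model, and 2228 higher and 68 lower after TYA-018.

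**Figure D1:**
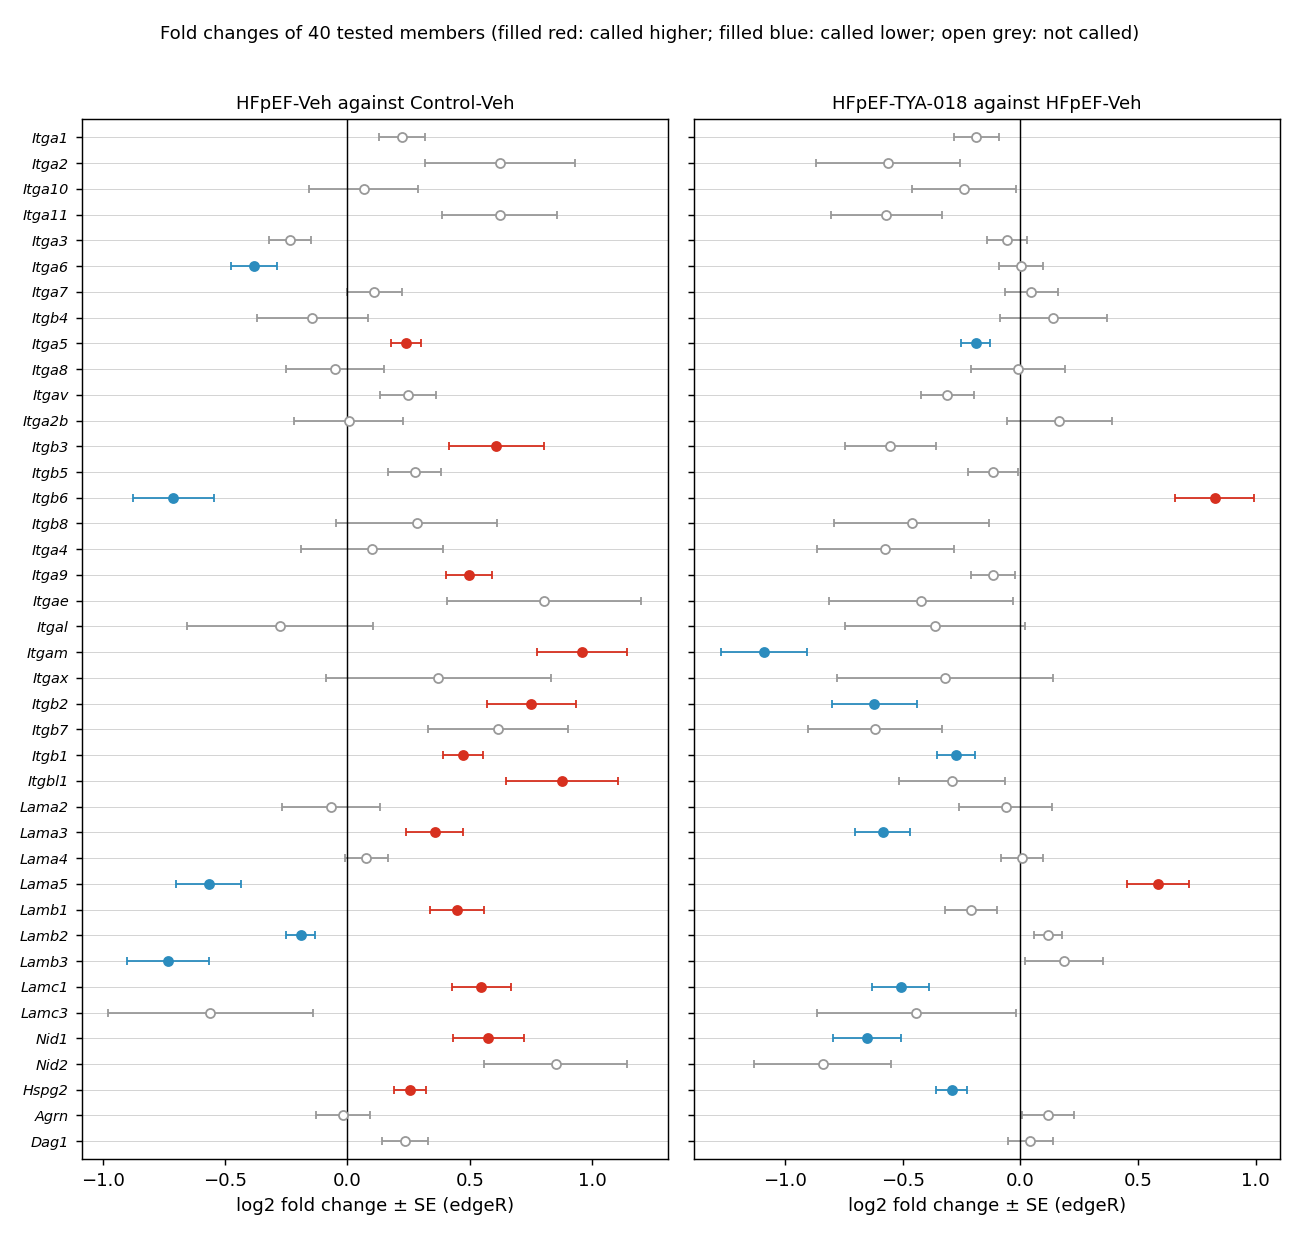
Log2 fold change ± SE (x axis, edgeR) of 40 tested members (y axis, in the order of their roles) in HFpEF-Veh against Control-Veh (left) and in HFpEF-TYA-018 against HFpEF-Veh (right). Filled red points were called higher and filled blue points lower. The 12 red points on the left include Itgb1, Lamc1 and Nid1, and the 2 red points on the right are Itgb6 and Lama5.

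To compare levels between genes, CPM was divided by the length in kilobases of the longest protein-coding transcript in the GENCODE M21 annotation. On this scale, as the mean of the 12 libraries, the most abundant members were Itgb1 at 52.7, Lamb2 at 43.1, Itga6 at 38.9, Dag1 at 31 and Hspg2 at 30.5 CPM per kb. Nid1 at 16.1, Agrn at 14.9, Lamc1 at 13.95, Lama5 at 11.6, Itga7 at 10.7 and Lamb1 at 10.1 CPM per kb followed. Among the laminin α chains, α5 was thus highest per length, followed by α4 (8.47 CPM per kb). The muscle chain α2 (Lama2) lay at 2.12 CPM per kb. Of the β chains, β2 was highest, followed by β1, and of the γ chains, γ1. The deposited TPM order some of these genes otherwise, being divided by effective lengths that for some genes are far from the annotated transcripts, in either direction. For Itga6 that length was 239 to 336 bases over the libraries, below its shortest annotated transcript of 443 bases and far below its longest coding transcript of 4310 bases. For Lama5 it was 1374 to 2027 against 11388 bases, for Lamb2 1358 to 1802 against 5629 bases, for Hspg2 3123 to 5363 against 14187 bases and for Itgb1 1659 to 2118 against 3815 bases. Other members had deposited lengths above their longest coding transcript, among them Itga9 with 10302 to 16772 against 7020 bases, Itga11 with 7244 to 11227 against 4969 bases and Itgb3 with 8012 to 11357 against 5784 bases. In TPM, Itga6 alone therefore made up 92.6% to 96.95% of the summed integrin α chains and Lama5 87.1% to 91.9% of the summed laminin α chains in the 12 libraries. Whether such reads came from short transcripts or were assigned to them cannot be told apart from gene tables.

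**Figure D2:**
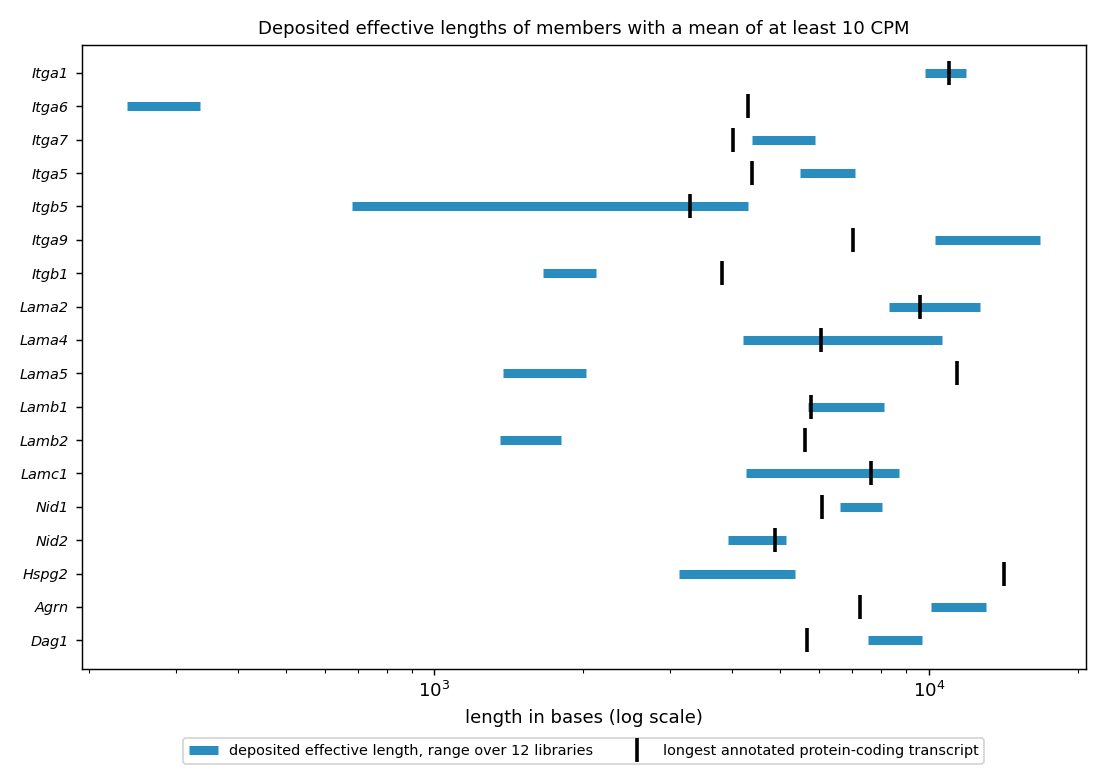
Deposited effective length (blue bar, lowest to highest of 12 libraries) and longest annotated protein-coding transcript (black tick) in bases, on a log axis, for the 18 members with a mean of at least 10 CPM. The bars of Itga6, Itgb1, Lama5, Lamb2 and Hspg2 end well to the left of their ticks.

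Promoters are shown for 5 of the 10 members that moved in both of the first comparisons, 3 of them higher in HFpEF-Veh and lower after TYA-018 (Itgb1, Nid1 and Hspg2) and 2 the reverse (Lama5 and Itgb6). They are RefSeq sequences of GRCm38.p6, from 250 bases before to 50 bases after the transcription start, written 5′ to 3′ on the strand of the gene: Itgb1 at chr8:128685404-128685703, plus strand, Nid1 at chr13:13437352-13437651, plus strand, Hspg2 at chr4:137468553-137468852, plus strand, Lama5 at chr2:180225810-180226109, minus strand and Itgb6 at chr2:60722554-60722853, minus strand. Capitals mark GGGCGG or its reverse complement, the GC box that is known to bind factors of the Sp family.
Itgb1: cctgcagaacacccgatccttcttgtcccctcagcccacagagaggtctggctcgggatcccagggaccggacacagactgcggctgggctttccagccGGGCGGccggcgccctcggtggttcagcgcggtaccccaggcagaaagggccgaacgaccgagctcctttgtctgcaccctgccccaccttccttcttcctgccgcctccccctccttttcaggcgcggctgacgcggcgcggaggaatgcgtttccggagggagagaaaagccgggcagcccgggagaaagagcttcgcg
Nid1: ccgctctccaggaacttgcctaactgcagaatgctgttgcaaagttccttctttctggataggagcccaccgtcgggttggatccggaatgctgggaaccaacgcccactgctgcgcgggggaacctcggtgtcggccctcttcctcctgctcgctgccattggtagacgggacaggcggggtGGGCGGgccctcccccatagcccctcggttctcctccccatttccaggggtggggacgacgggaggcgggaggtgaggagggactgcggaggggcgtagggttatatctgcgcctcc
Hspg2: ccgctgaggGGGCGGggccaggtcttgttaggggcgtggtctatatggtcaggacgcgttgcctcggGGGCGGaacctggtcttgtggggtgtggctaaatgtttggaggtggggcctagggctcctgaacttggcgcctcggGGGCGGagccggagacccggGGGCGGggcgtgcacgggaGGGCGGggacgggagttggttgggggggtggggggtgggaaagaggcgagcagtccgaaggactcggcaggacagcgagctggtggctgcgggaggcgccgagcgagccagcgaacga
Lama5: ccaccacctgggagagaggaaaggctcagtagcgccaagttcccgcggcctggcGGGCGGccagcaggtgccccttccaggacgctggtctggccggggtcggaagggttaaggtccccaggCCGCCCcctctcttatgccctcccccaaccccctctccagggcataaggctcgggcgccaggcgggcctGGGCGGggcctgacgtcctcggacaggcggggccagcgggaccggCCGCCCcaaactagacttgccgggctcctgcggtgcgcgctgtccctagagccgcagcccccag
Itgb6: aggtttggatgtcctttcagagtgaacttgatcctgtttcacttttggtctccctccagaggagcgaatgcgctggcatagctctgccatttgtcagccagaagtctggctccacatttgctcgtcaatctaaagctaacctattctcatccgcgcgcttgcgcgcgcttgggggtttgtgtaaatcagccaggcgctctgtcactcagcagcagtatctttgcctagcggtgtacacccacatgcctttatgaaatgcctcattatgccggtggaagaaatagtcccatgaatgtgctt
Hspg2 held 5 such boxes, Lama5 4, Itgb1 and Nid1 1 each and Itgb6 0 in this window. Over the family, RefSeq gave 34 promoters of 29 members, and 55.9% of them held a GC box against 35.7% of all 32851 promoters of the same length. The TATA box (TATAAA) was in 0 of the 34, against 13.6% of all promoters. The AP-1 element TGANTCA was in 8.82% of the members' promoters and 7.81% of all, the TEAD element GGAATG in 11.8% and 14.7%, and the E box CAGCTG in 26.5% and 16.3%. Both strands were searched, and none of the 5 motifs contains another. The median GC content was 59.3% over the members' promoters and 52.7% over all. These are matches of letters and were not tested against the fold changes.

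The common β chain rose in the model. Itgb1 (chromosome 8, 128685654 to 128733200, GRCm38), which pairs with most of the α chains below and is the main β chain of cardiomyocytes and fibroblasts, had 201, 153, 164 and 165 CPM in C1 to C4, 224, 225, 254 and 243 CPM in V1 to V4 and 187, 195, 198 and 202 CPM in T1 to T4. All 4 HFpEF-Veh libraries lay above all 4 Control-Veh libraries and above all 4 HFpEF-TYA-018 libraries. The model level was 1.39-fold of control (log2 difference 0.47 ± 0.082, edgeR adjusted p = 0.00256). After TYA-018 it was lower than in HFpEF-Veh (log2 difference -0.27 ± 0.082, edgeR adjusted p = 0.035), and this call was lost without C3, T1, T2, T3, V3 or V4 (edgeR adjusted p between 0.05 and 0.0967). With log2(TPM + 1) its change after TYA-018 was 0.010, with all genes at a median of 0.17. Of the 4 settings with deposited lengths or TPM, 2 kept the model call and 0 kept the call after TYA-018. HFpEF-TYA-018 and Control-Veh differed by a log2 difference of 0.20 ± 0.082 (edgeR adjusted p = 0.177), which was called only without C1 (edgeR adjusted p = 0.0271).

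None of the 4 collagen-binding α chains was called in any of the 3 comparisons with edgeR on all 12 libraries. Itga1, the chain of the α1β1 collagen receptor, was the most abundant of them, with means of 59.2 ± 7.699, 69.1 ± 4.89 and 60.7 ± 5.39 CPM in the control, vehicle-treated HFpEF and TYA-018 groups, and its groups overlapped. Its log2 difference of 0.22 ± 0.095 in the model (edgeR adjusted p = 0.113) was called without C1 (edgeR adjusted p = 0.0195). Itga11, the fibrillar collagen receptor of fibroblasts, had means of 2.18 ± 0.8097, 3.36 ± 0.587 and 2.26 ± 0.394 CPM in the control, vehicle-treated HFpEF and TYA-018 groups. Its log2 difference of 0.62 ± 0.24 in the model (edgeR adjusted p = 0.0784) was called without C1 (0.00761) and by DESeq2 (0.0435), and that of -0.57 ± 0.23 after TYA-018 (edgeR adjusted p = 0.11) was called without C1 (0.0412) and with only the 2 groups in the fit (0.0425). Itga10 averaged between 1.84 and 2.18 CPM in the groups and Itga2, the platelet and epithelial chain, between 0.375 and 0.581 CPM. Of these 4, 2 in the model and 1 after TYA-018 had an unadjusted p under 0.05, as did 5093 and 4753 of all 14333 genes.

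Among the laminin-binding chains, Itga6 fell in the model, while Itga7, Itga3 and Itgb4 did not pass the test. The log2 ratio of Itga6 to Itga7 CPM was 2.07 to 2.66 in Control-Veh and 1.47 to 2.195 in HFpEF-Veh. These ranges overlapped, and a difference between the 2 genes was not tested. Itga6 (chromosome 2, 71745616 to 71858416), a laminin receptor of endothelial and epithelial cells, had 168, 223, 204 and 198 CPM in C1 to C4, 174, 158, 139.8 and 136 CPM in V1 to V4 and 149, 158, 152 and 150.5 CPM in T1 to T4. Only V1 of the HFpEF-Veh libraries reached into the range of the controls, above C1. It was 0.767-fold of Control-Veh in HFpEF-Veh (log2 difference -0.38 ± 0.094, edgeR adjusted p = 0.0142), and the call was kept in all 21 alternative settings. After TYA-018 it stayed near HFpEF-Veh (log2 difference 0.0026 ± 0.094, edgeR adjusted p = 0.988) and was lower than in Control-Veh (log2 difference -0.38 ± 0.094, edgeR adjusted p = 0.0371), with all 4 HFpEF-TYA-018 libraries below all 4 controls. The latter call was lost without C2, C3, C4, T1, T2, T3 or T4 (edgeR adjusted p between 0.0754 and 0.0866). It was kept in 2 of the 4 settings with deposited lengths or TPM. The deposited length of this gene, given above, was below its shortest annotated transcript in every library. It is an effective length and not the full length of a transcript. The annotation is GENCODE M21, while reads were quantified with M25.

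Itga7, the laminin receptor of muscle fibres and cardiomyocytes, had 39.8, 35.2, 42.9 and 43.7 CPM in C1 to C4, 41.3, 34.6, 49.4 and 49.2 CPM in V1 to V4 and 50.2, 43.5, 45.1 and 41.3 CPM in T1 to T4, and the 3 groups overlapped. Its log2 difference was 0.11 ± 0.11 in the model (edgeR adjusted p = 0.524) and 0.047 ± 0.11 after TYA-018 (edgeR adjusted p = 0.809). Itga3, an epithelial laminin receptor, had means of 8.32 ± 0.784, 7.07 ± 0.534 and 6.802 ± 0.241 CPM in the control, vehicle-treated HFpEF and TYA-018 groups. Its HFpEF-Veh and its HFpEF-TYA-018 libraries lay below all controls, but neither difference was called (edgeR adjusted p = 0.0673 and 0.0653), except without C1 (0.0354 and 0.0478) and, for the second, by DESeq2 (0.0339). Itgb4, the hemidesmosome chain that pairs with α6, averaged 2.16 to 2.39 CPM and was not called.

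Among the 8 chains that bind the Arg-Gly-Asp motif of fibronectin and its relatives, Itga5 and Itgb3 rose and Itgb6 fell in the model. Itga5, the chain of the fibronectin receptor, had 40.9, 37.3, 43.9 and 37.9 CPM in C1 to C4, 45.7, 44.9, 48.8 and 49.5 CPM in V1 to V4 and 40.9, 42.9, 39.5 and 42.2 CPM in T1 to T4. Its HFpEF-Veh libraries lay above all libraries of the other groups. The rise was 1.18-fold (log2 difference 0.24 ± 0.061, edgeR adjusted p = 0.0169) and was lost without C4 (edgeR adjusted p = 0.0566). After TYA-018 it was lower than in HFpEF-Veh (log2 difference -0.19 ± 0.061, edgeR adjusted p = 0.0465), and that call was lost without C4, T1, T2, T3, T4, V1, V2, V3 or V4 (edgeR adjusted p between 0.0518 and 0.119). On the log2(TPM + 1) scale this second difference turned to 0.18, with all genes at a median of 0.17. The first call was kept in 1 and the second in 0 of the 4 settings with deposited lengths or TPM.

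Itgb3, the β chain of the vitronectin receptor and of the platelet fibrinogen receptor, had 2.05, 1.65, 2.097 and 1.52 CPM in C1 to C4, 2.65, 3.03, 3.43 and 2.03 CPM in V1 to V4 and 1.56, 1.85, 2.39 and 1.801 CPM in T1 to T4. V4 lay within the control range. Its rise in the model (log2 difference 0.61 ± 0.19, edgeR adjusted p = 0.0423) was lost without C2, C3, C4, T2, T4, V1, V2 or V3 (edgeR adjusted p between 0.0521 and 0.123), and its difference after TYA-018 (log2 difference -0.55 ± 0.19, edgeR adjusted p = 0.064) was called without T3 or V4 (0.0366 to 0.0421) and by DESeq2 (0.0363). Itga2b, which pairs with it on platelets, averaged 1.49, 1.49 and 1.68 CPM in the groups and was not called, while platelet markers summed to 3.81 to 6.82 CPM in Control-Veh and 6.42 to 8.11 CPM in HFpEF-Veh. Of 3 platelet markers tested, Pf4 was called higher in the model (1.404-fold, log2 difference 0.49 ± 0.14, edgeR adjusted p = 0.0242), and the part of platelets in the result was not tested. The Itgb3 call was kept in none of the 4 settings with deposited lengths or TPM, where the log2 difference was 0.023 to 0.54.

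Itgb6 (chromosome 2, 60598292 to 60722643), an epithelial chain known for the activation of TGF-β, had 5.34, 7.46, 5.99 and 5.25 CPM in C1 to C4, 3.89, 4.33, 3.45 and 3.02 CPM in V1 to V4 and 7.06, 7.28, 6.97 and 4.704 CPM in T1 to T4. The 4 HFpEF-Veh libraries lay below all 8 others. It was 0.611-fold of Control-Veh in HFpEF-Veh (log2 difference -0.71 ± 0.17, edgeR adjusted p = 0.0115) and 1.77-fold of HFpEF-Veh after TYA-018 (log2 difference 0.83 ± 0.17, edgeR adjusted p = 0.0067). The second call was kept in all 21 alternative settings, and the first in all 12 fits without 1 library but in none of the 4 settings that used deposited lengths or TPM. T4, at 4.70 CPM, stood below T1 to T3 at 6.97 to 7.28 CPM. Its promoter above was the one of the 5 without a GC box, while that of Lama5, which moved in the same directions, held 4. RefSeq gave another Itgb6 promoter, at chr2:60673644-60673943, which also held 0. A link between GC boxes and these changes was not tested.

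The other chains of this group were not called. Itgav, the partner of β3, β5, β6 and β8, had means of 9.12 ± 1.16, 10.8 ± 0.733 and 8.74 ± 1.24 CPM in the control, vehicle-treated HFpEF and TYA-018 groups. It differed after TYA-018 by a log2 difference of -0.31 ± 0.11 (edgeR adjusted p = 0.0747; 0.0379 without T4). Itgb5 had means of 14.6 ± 2.16, 17.7 ± 1.55 and 16.3 ± 1.48 CPM in the control, vehicle-treated HFpEF and TYA-018 groups, with a log2 difference of 0.27 ± 0.11 in the model (edgeR adjusted p = 0.0878; 0.0237 without C1). Itga8 averaged 3.34 to 3.49 CPM and Itgb8 0.740 to 1.02 CPM.

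Itga9, whose chain binds tenascin C and osteopontin among others, was the member called higher than control after TYA-018. It had 17.8, 14.9, 18.1 and 17.5 CPM in C1 to C4, 21.03, 23.5, 27.1 and 24.6 CPM in V1 to V4 and 21.7, 23.3, 24.3 and 19.4 CPM in T1 to T4. All 4 libraries of HFpEF-Veh and all 4 of HFpEF-TYA-018 lay above all controls. The rise in the model was 1.41-fold (log2 difference 0.50 ± 0.094, edgeR adjusted p = 0.00409) and HFpEF-TYA-018 stood at 1.300-fold of Control-Veh (log2 difference 0.38 ± 0.094, edgeR adjusted p = 0.0379). HFpEF-TYA-018 and HFpEF-Veh differed by -0.12 ± 0.094 (edgeR adjusted p = 0.409), a value that does not show that they were alike. The call against Control-Veh was lost without C1, C2, C3, C4, T1, T2, T3 or V4 (edgeR adjusted p between 0.05 and 0.1). Neither call was kept in any of the 4 settings with deposited lengths or TPM, where the log2 difference was 0.064 to 0.42 in the model and 0.27 to 0.62 in HFpEF-TYA-018 against Control-Veh. Mean TPM was 0.418 ± 0.0449, 0.484 ± 0.107 and 0.721 ± 0.257 in the control, vehicle-treated HFpEF and TYA-018 groups, so that on this scale the treated hearts had the highest mean. Itga4, the related chain of lymphocytes, had means of 1.96 ± 0.935, 2.11 ± 0.362 and 1.42 ± 0.357 CPM in the control, vehicle-treated HFpEF and TYA-018 groups and was not called, with C1 at 3.36 CPM against 1.42 to 1.58 CPM in C2 to C4.

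Of 6 leukocyte chains tested, 2 (Itgam and Itgb2) were called higher in the model and lower after TYA-018. This was 33.3% of them each time, against 10.9% of all genes called higher in the model and 10.4% lower after TYA-018. With so few chains, these shares rest on 2 genes and are not a result about leukocyte chains as a set. Itgam, the α chain of the complement receptor Mac-1 (CD11b), had 2.88, 1.66, 2.32 and 1.795 CPM in C1 to C4, 3.37, 4.75, 4.38 and 4.34 CPM in V1 to V4 and 1.699, 1.86, 2.28 and 2.07 CPM in T1 to T4. All 4 HFpEF-Veh libraries lay above all 8 others. It was 1.94-fold of Control-Veh in HFpEF-Veh (log2 difference 0.96 ± 0.18, edgeR adjusted p = 0.00427) and 0.4697-fold of HFpEF-Veh after TYA-018 (log2 difference -1.09 ± 0.18, edgeR adjusted p = 0.00299). Both calls were kept in all 12 fits without 1 library but in none of the 4 settings with deposited lengths or TPM, where the log2 difference was 0.0075 to 0.27 in the model and -0.87 to -0.047 after TYA-018. Mean TPM was 0.163 ± 0.0616, 0.169 ± 0.0249 and 0.132 ± 0.06201 in the control, vehicle-treated HFpEF and TYA-018 groups, and the deposited length ranged over 2924 to 9339 bases. Of the 31-base words in its transcripts, 68.3% also occur in other annotated genes, among them Gm49368, which overlaps it on the same strand, so its counts are uncertain where salmon could split such reads.

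Itgb2, the β chain of the leukocyte integrins, had 3.84, 2.79, 2.73 and 2.71 CPM in C1 to C4, 3.78, 5.33, 5.04 and 6.197 CPM in V1 to V4 and 2.602, 3.096, 4.11 and 3.44 CPM in T1 to T4. V1 lay just below C1, and V1 also lay below T3. It was 1.68-fold of Control-Veh in HFpEF-Veh (log2 difference 0.75 ± 0.18, edgeR adjusted p = 0.0136) and 0.651-fold of HFpEF-Veh after TYA-018 (log2 difference -0.62 ± 0.18, edgeR adjusted p = 0.0337). The second call was lost without T1, T2, T4, V2, V3 or V4 (edgeR adjusted p between 0.0534 and 0.1). With deposited lengths or TPM, the first was kept in 2 and the second in 0 of the 4 settings. Beside these genes, 6 of 7 macrophage and leukocyte markers were called higher in the model and 2 were called lower after TYA-018. Neutrophil markers, also of myeloid cells, went the other way in the model, with 2 of 4 tested, S100a9 and Csf3r, called lower (median log2 fold change -1.72) and sums of 4.10 to 10.8 CPM in Control-Veh and 1.72 to 4.703 CPM in HFpEF-Veh. The T and B cell marker sum was at most 4.22 CPM in a library. The part of these cells in the result was not tested.

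The remaining leukocyte chains were low and not called on all 12 libraries. Itgal, the chain of lymphocyte LFA-1, averaged 0.809 to 1.26 CPM, Itgb7 0.805 to 1.24 CPM (called higher in the model without C1, edgeR adjusted p = 0.0289), Itgax 0.642 to 0.832 CPM and Itgae 0.156 to 0.274 CPM. Itgae did not overlap between HFpEF-Veh (0.258 to 0.287 CPM) and Control-Veh (0.0876 to 0.226 CPM), but the difference was not called (edgeR adjusted p = 0.17). Itgad and Itgb2l did not pass the filter, with at most 7 estimated counts in a library for Itgad and 1 count in T4 alone for Itgb2l. A count of 0 allows up to 3 counts, which is 0.0357 to 0.0490 CPM in these libraries, for counting error only.

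Itgbl1, an integrin-like gene expressed by fibroblasts that has no transmembrane part, had 8.21, 5.07, 6.34 and 4.12 CPM in C1 to C4, 9.66, 12.1, 9.08 and 12.7 CPM in V1 to V4 and 6.36, 7.47, 10.4 and 11.4 CPM in T1 to T4. All 4 HFpEF-Veh libraries lay above all controls, and the HFpEF-TYA-018 libraries spread over both ranges. The rise was 1.84-fold (log2 difference 0.88 ± 0.23, edgeR adjusted p = 0.0183) and was lost without C2, C4 or V4 (edgeR adjusted p between 0.0511 and 0.0546). This call was kept in 1 of the 4 settings with deposited lengths or TPM. After TYA-018 the difference from HFpEF-Veh was -0.29 ± 0.23 (edgeR adjusted p = 0.398). Of 6 fibroblast markers, 2 were called higher in the model and 3 lower after TYA-018, and their part in the result was not tested.

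**Figure D3:**
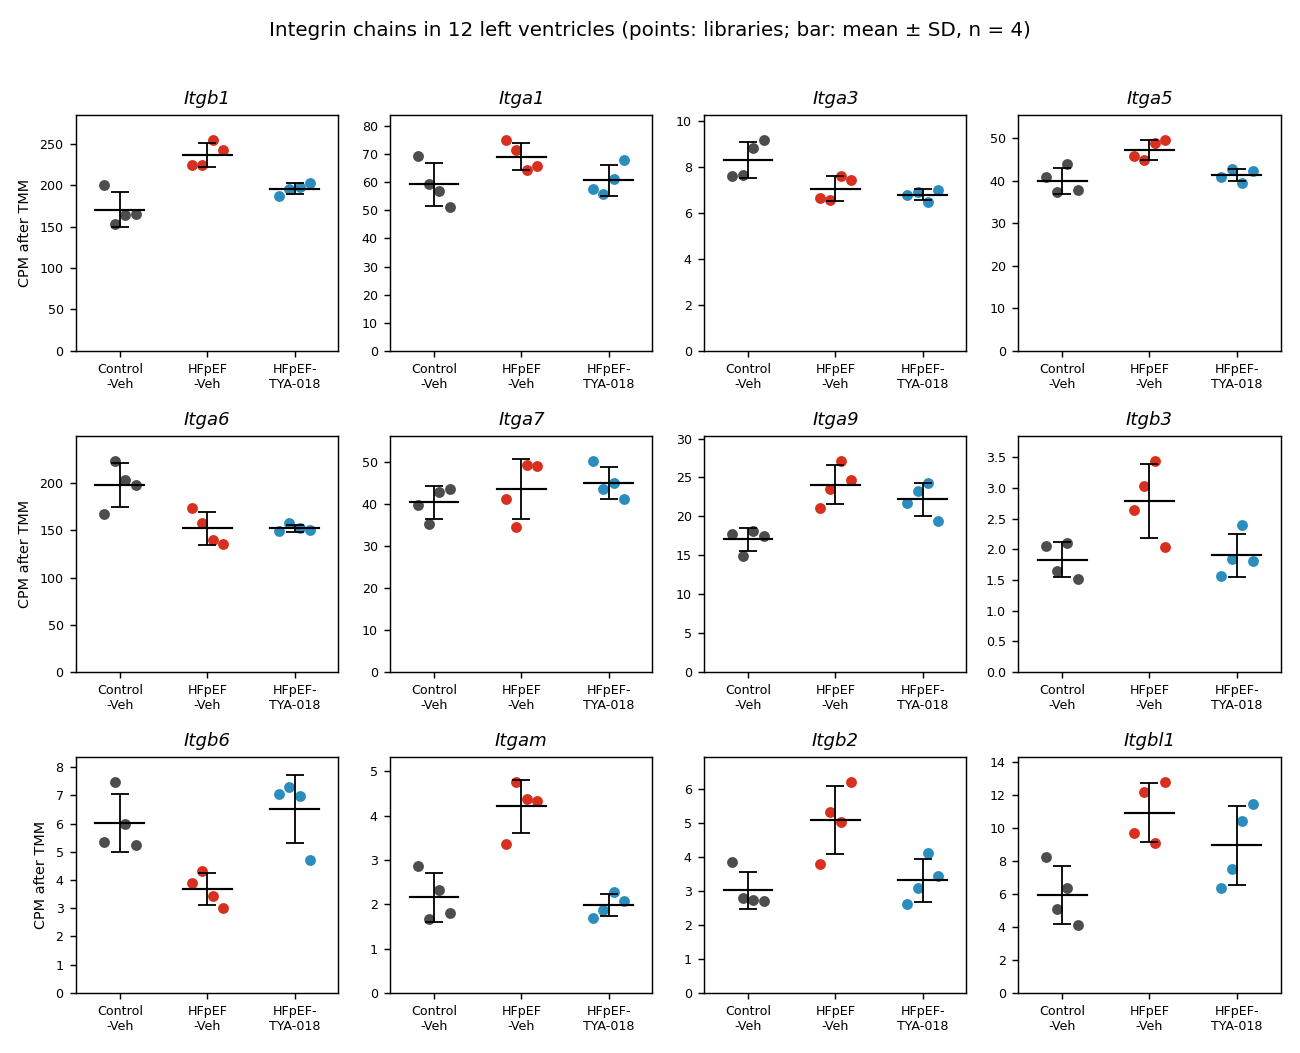
CPM (y axis, linear, starting at 0) of 12 integrin chains in the 12 libraries by group (x axis). Points are libraries and the bar is the mean ± SD, n = 4. Itgb1, Itga5 and Itgam show the HFpEF-Veh points above all others, Itgb6 shows them below all others, and Itga6 and Itga9 show HFpEF-TYA-018 next to HFpEF-Veh.

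Among the laminin chains some rose and others fell in the model. Of the 10 chains tested, 4 (40%) were called higher and 3 (30%) lower in the model, against 10.9% and 10.3% of all genes. Their summed level was 636 ± 19.6, 617 ± 29.5 and 634 ± 24.1 CPM in the control, vehicle-treated HFpEF and TYA-018 groups. After TYA-018, 1 chain (10%) was called higher and 2 (20%) lower than in HFpEF-Veh, against 8.93% and 10.4% of all genes. With so few chains, the counts after TYA-018 are near those shares. The endothelial markers, whose cells make many of these chains, were called higher for 3 of 7 in the model and lower for 3 of 7 after TYA-018, and their part was not tested.

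Of the α chains, Lama5 (chromosome 2, 180176373 to 180225859), a chain of endothelial and epithelial basement membranes, fell in the model. It had 133, 166, 153 and 139 CPM in C1 to C4, 105, 103, 80.2 and 110.3 CPM in V1 to V4 and 179, 152, 152 and 115 CPM in T1 to T4. All 4 HFpEF-Veh libraries lay below all 8 others. HFpEF-Veh held 0.675-fold of Control-Veh (log2 difference -0.57 ± 0.13, edgeR adjusted p = 0.0113), and after TYA-018 the level was 1.498-fold of HFpEF-Veh (log2 difference 0.58 ± 0.13, edgeR adjusted p = 0.0112). The second call was kept in all 21 alternative settings. The first was kept in all 12 fits without 1 library but in none of the 4 settings with deposited lengths or TPM, where its change was between -0.58 and -0.31.

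Lama3, a chain of epithelial laminins, moved in the other direction at a low level, with 3.38, 2.88, 2.81 and 3.06 CPM in C1 to C4, 4.14, 4.08, 3.93 and 3.37 CPM in V1 to V4 and 2.25, 2.88, 2.64 and 2.58 CPM in T1 to T4. V4 lay just below C1. The rise in the model (log2 difference 0.36 ± 0.12, edgeR adjusted p = 0.046) was lost without C2, C3, C4, T2, T3, T4, V1, V2 or V3 (edgeR adjusted p between 0.0521 and 0.112). After TYA-018 all 4 libraries lay below all HFpEF-Veh libraries, at 0.666-fold (log2 difference -0.59 ± 0.12, edgeR adjusted p = 0.00605). With log2(TPM + 1) the 2 differences had the opposite sign, at -0.012 and 0.034, with all genes at medians of -0.069 and 0.17. Neither call was kept in any of the 4 settings with deposited lengths or TPM.

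Lama2 and Lama4, which encode α chains of laminins in heart muscle and in vessels, did not pass the test in either comparison. Lama2, the chain of muscle laminin that binds dystroglycan, had 33.7, 16.4, 17.6 and 17.3 CPM in C1 to C4, 17.4, 20.8, 21.3 and 21.6 CPM in V1 to V4 and 19.8, 16.99, 19.6 and 21.4 CPM in T1 to T4. C1 was the highest of the 12 libraries, and the others lay between 16.4 and 21.6 CPM. Its log2 difference was -0.067 ± 0.20 in the model (edgeR adjusted p = 0.843) and -0.063 ± 0.20 after TYA-018 (edgeR adjusted p = 0.859). Lama4, like Lama5, encodes a chain of vascular laminin. Lama4 had means of 49.3 ± 4.69, 52.05 ± 6.56 and 52.2 ± 1.65 CPM in the control, vehicle-treated HFpEF and TYA-018 groups. Its log2 fold change after TYA-018 was 0.0052 ± 0.089 on counts (edgeR adjusted p = 0.973) and 0.82 with the deposited lengths as offset, where it was called (edgeR adjusted p = 0.0263). Its deposited length ranged over 4199 to 10648 bases. Lama1, the chain of early embryos, had at most 7 estimated counts in a library and was not tested.

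The β chains changed in opposite directions. Lamb1, the widespread β chain of vessels and stroma, had 61.6, 43.1, 48.7 and 44.7 CPM in C1 to C4, 77.3, 68.7, 61.3 and 63.1 CPM in V1 to V4 and 57.8, 55.8, 55.8 and 64.6 CPM in T1 to T4. V3 lay just below C1 and the other HFpEF-Veh libraries above all controls. It rose 1.36-fold (log2 difference 0.45 ± 0.11, edgeR adjusted p = 0.0146) and did not pass the test after TYA-018 (log2 difference -0.21 ± 0.11, edgeR adjusted p = 0.21). The call of the rise was kept in 1 of the 4 settings with deposited lengths or TPM. Relative to the controls, HFpEF-TYA-018 differed by 0.24 ± 0.11 (edgeR adjusted p = 0.225), which was called without C1 (0.0376). Lamb2, the chain of the mature muscle membrane and the most abundant laminin mRNA, had 246, 265, 251 and 269 CPM in C1 to C4, 238, 213, 216 and 237 CPM in V1 to V4 and 252, 250.3, 242 and 234 CPM in T1 to T4. In HFpEF-Veh, all 4 libraries lay below all controls, at 0.876-fold (log2 difference -0.19 ± 0.06, edgeR adjusted p = 0.0398). That call was lost without C2, C3, C4, T2, T3, V2 or V3 (edgeR adjusted p between 0.0565 and 0.11), and with deposited lengths as offset the change was 0.025. None of the 4 settings with deposited lengths or TPM kept it. The log2 ratio of Lamb1 to Lamb2 CPM was -2.62 to -1.998 in Control-Veh, -1.91 to -1.62 in HFpEF-Veh and -2.17 to -1.86 in HFpEF-TYA-018.

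Lamb3, the β chain of epithelial laminin, had 8.48, 10.02, 12.3 and 13.05 CPM in C1 to C4, 5.69, 7.33, 6.18 and 7.12 CPM in V1 to V4 and 9.19, 7.300, 5.49 and 7.92 CPM in T1 to T4. Every HFpEF-Veh library lay below all controls, at 0.601-fold (log2 difference -0.73 ± 0.17, edgeR adjusted p = 0.01). The call was kept in all 12 fits without 1 library but in none of the 4 settings with deposited lengths or TPM, where the log2 difference was -0.81 to -0.37. After TYA-018 it differed from HFpEF-Veh by 0.19 ± 0.17 (edgeR adjusted p = 0.473) and from Control-Veh by -0.55 ± 0.17 (edgeR adjusted p = 0.074, called without C1 at 0.0406 and by DESeq2 at 0.0196).

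Of the γ chains, Lamc1 (chromosome 1, 153218922 to 153332786), which is part of nearly all laminins of the heart, rose. It had 118, 76.3, 87.4 and 83.96 CPM in C1 to C4, 126, 136, 130.2 and 143 CPM in V1 to V4 and 86.2, 86.9, 96.3 and 106 CPM in T1 to T4. Each of the HFpEF-Veh libraries lay above all 8 others, and C1 came closest to them. It was 1.46-fold of Control-Veh (log2 difference 0.55 ± 0.12, edgeR adjusted p = 0.00851) and after TYA-018 0.703-fold of HFpEF-Veh (log2 difference -0.51 ± 0.12, edgeR adjusted p = 0.0133). Both calls were kept in all 12 fits without 1 library. Of the 4 settings with deposited lengths or TPM, 1 kept the model call and 0 kept the call after TYA-018. With log2(TPM + 1) the change after TYA-018 was 0.29, or 0.12 relative to the median of all genes. Lamc3 averaged 0.378 to 0.760 CPM and was not called.

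Of the linkers, nidogen 1 and perlecan rose in the model and were lower after TYA-018. Nid1 (chromosome 13, 13437551 to 13512269), which joins laminin γ1 to type IV collagen, had 113, 69.4, 83.6 and 75.99 CPM in C1 to C4, 129, 123, 123 and 134 CPM in V1 to V4 and 67.3, 72.9, 88.6 and 95.8 CPM in T1 to T4. In HFpEF-Veh, all 4 libraries lay above all 8 others, and C1 was the highest of those. It was 1.49-fold of Control-Veh (log2 difference 0.58 ± 0.14, edgeR adjusted p = 0.0155), a call lost without C4 (edgeR adjusted p = 0.0509), and 0.637-fold of HFpEF-Veh after TYA-018 (log2 difference -0.65 ± 0.14, edgeR adjusted p = 0.0101), a call kept in all 12 fits without 1 library. Each of these calls was kept in only 1 of the 4 settings with deposited lengths or TPM. Nid2, the second nidogen, had means of 11.7 ± 5.24, 21.1 ± 6.79 and 11.8 ± 2.31 CPM in the control, vehicle-treated HFpEF and TYA-018 groups. Its changes were larger but also more variable, at 0.85 ± 0.29 (edgeR adjusted p = 0.0563) and -0.84 ± 0.29 (edgeR adjusted p = 0.0629). The first was called without C1 or V2 (0.00556 to 0.0347) and by DESeq2 (0.0393), and the second without C1, C2 or V2 (0.0211 to 0.0483), by DESeq2 (0.0463) and with only the 2 groups in the fit (0.0299). The gene Rtraf overlaps Nid2 on the opposite strand, and the strand setting of the counting is not given in the sources used here.

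Hspg2 (chromosome 4, 137468769 to 137570630), which encodes perlecan, the heparan sulphate proteoglycan of vascular basement membranes, had 451, 393, 403 and 388 CPM in C1 to C4, 505, 486, 475 and 489 CPM in V1 to V4 and 371, 409, 423 and 392 CPM in T1 to T4. Every HFpEF-Veh library lay above all 8 others. It was 1.19-fold of Control-Veh (log2 difference 0.26 ± 0.065, edgeR adjusted p = 0.0159), a call lost without C4 (edgeR adjusted p = 0.0533). After TYA-018 it was 0.817-fold of HFpEF-Veh (log2 difference -0.29 ± 0.065, edgeR adjusted p = 0.00992). On the log2(TPM + 1) scale that change turned to 0.36, or 0.20 relative to the median of all genes. Of the 4 settings with deposited lengths or TPM, 2 kept the model call and 0 kept the call after TYA-018. Agrn, the proteoglycan of the nerve endplate and of many basement membranes, had means of 106 ± 4.35, 105 ± 6.11 and 114 ± 20.7 CPM in the control, vehicle-treated HFpEF and TYA-018 groups and was not called.

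Dag1, whose product is cut into the α and β subunits of dystroglycan, had 178, 140.4, 159 and 144 CPM in C1 to C4, 163, 170.3, 194 and 205 CPM in V1 to V4 and 186, 184, 178 and 205 CPM in T1 to T4. HFpEF-TYA-018 lay above all controls and HFpEF-Veh overlapped both. Its log2 difference was 0.24 ± 0.094 in the model (edgeR adjusted p = 0.0914) and 0.28 ± 0.094 in HFpEF-TYA-018 against Control-Veh (edgeR adjusted p = 0.104). Both were called without C1 (0.0251 and 0.0450) and by DESeq2 (0.0471 and 0.0375). After TYA-018 the difference from HFpEF-Veh was 0.043 ± 0.094 (edgeR adjusted p = 0.791).

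**Figure D4:**
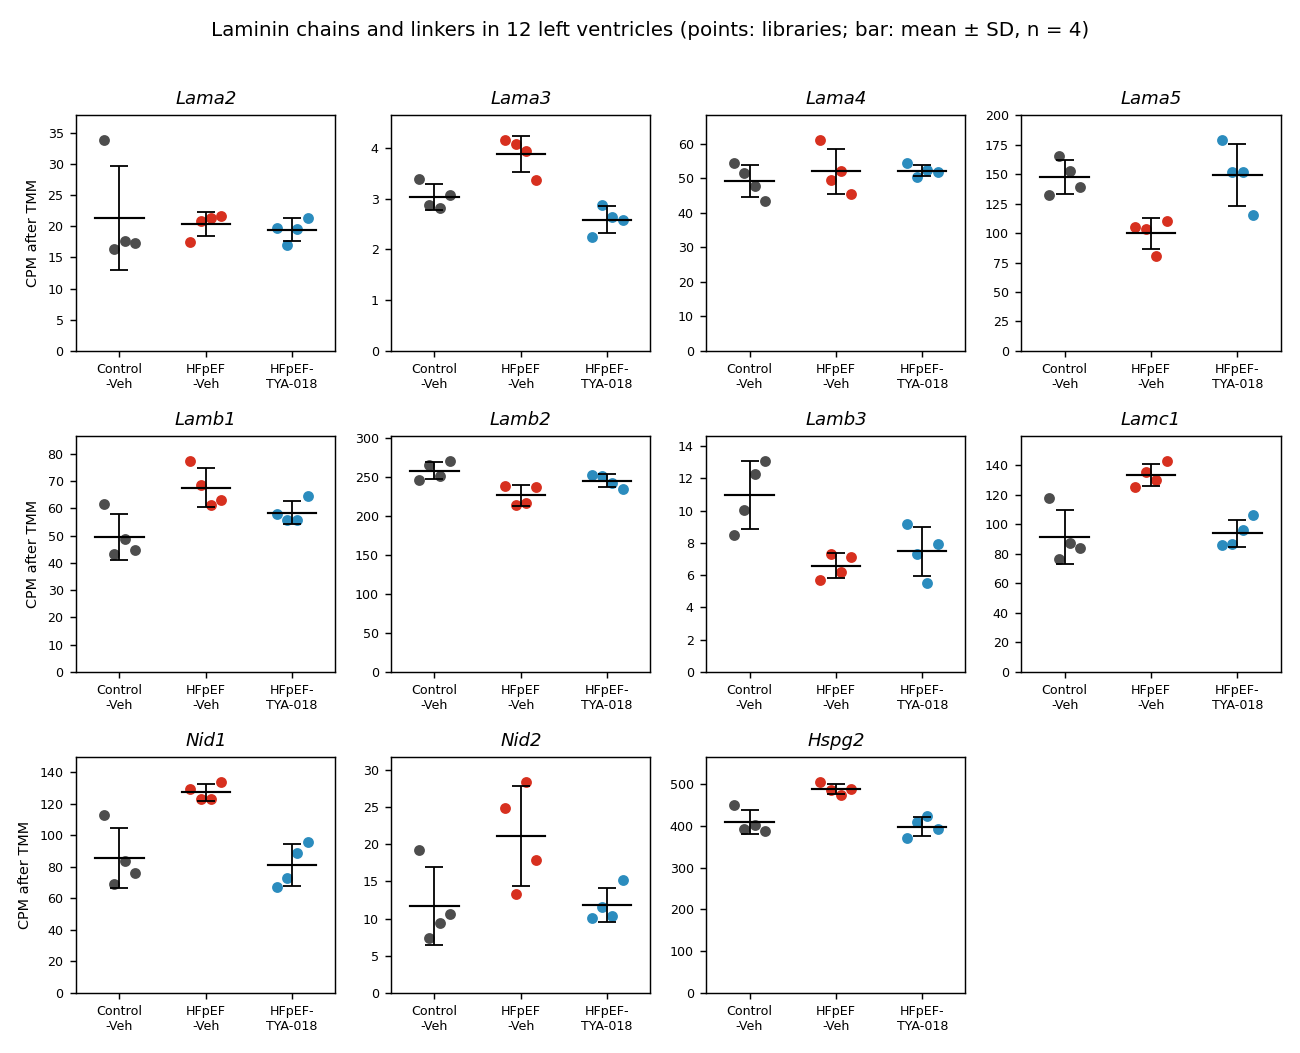
CPM (y axis, linear, starting at 0) of 8 laminin chains, both nidogens and perlecan in the 12 libraries by group (x axis). Points are libraries and the bar is the mean ± SD, n = 4. The HFpEF-Veh points of Lamc1, Nid1 and Hspg2 lie above all others and those of Lama5 below all others, while C1, the leftmost grey point, is the highest control for Lama2, Lamb1, Lamc1, Nid1, Nid2 and Hspg2.

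The integrin sum and the linker sum were higher in HFpEF-Veh, with no test run on the sums. Integrin chains summed to 594.5 ± 16.8, 655 ± 9.89 and 588 ± 11.9 CPM in the control, vehicle-treated HFpEF and TYA-018 groups, and the nidogens, perlecan and agrin to 612 ± 53.2, 742 ± 22.7 and 605.5 ± 40.0 CPM. In both sums all 4 HFpEF-Veh libraries lay above all 8 others (641 to 664 CPM against 573 to 616 CPM for integrins, and 720.4 to 772 CPM against 559 to 691 CPM for linkers). Itgb1 alone had means of 171 ± 20.7, 237 ± 14.6 and 196 ± 6.60 CPM in the control, vehicle-treated HFpEF and TYA-018 groups. The rise of the integrin sum in the model was thus no larger than that of Itgb1. Of the linkers, Hspg2 had means of 409 and 489 CPM and Nid1 of 85.4 and 127 CPM in Control-Veh and HFpEF-Veh. In the same groups Nid2 had means of 11.7 and 21.1 CPM and Agrn of 106 and 105 CPM.

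Genes that work with the members were taken from lists. Beside the counts below, 10.9% of all genes were called higher and 10.3% lower in the model, and 8.93% higher and 10.4% lower after TYA-018. Of 25 tested genes of the adhesion complex that couples integrins to actin, 5 were called higher and 0 lower in the model (median log2 fold change 0.16), and after TYA-018 1 was called higher and 7 lower (median -0.15). Those of smallest p in the model were Vasp (0.40 ± 0.069), an actin filament protein, the parvins Parvb (0.41 ± 0.076) and Parva (0.22 ± 0.056), and vinculin, Vcl (0.35 ± 0.089). After TYA-018 they were paxillin, Pxn (-0.30 ± 0.06), the LIM adaptor Lims2 (-0.52 ± 0.11), Parva (-0.25 ± 0.056) and α-actinin 1, Actn1 (-0.31 ± 0.072). Relative to the controls, HFpEF-TYA-018 was lower for Pxn (log2 difference -0.38 ± 0.06, edgeR adjusted p = 0.00555) and higher for Vasp (log2 difference 0.26 ± 0.069, edgeR adjusted p = 0.0454).

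The ligands of integrins other than laminin and collagen had the largest share of calls among these lists, with 11 of 15 called higher and 0 lower in the model (median log2 fold change 0.41) and 0 higher and 8 lower after TYA-018 (median -0.36). In the model the smallest p-values were those of periostin, Postn (means of 17.9 ± 3.87, 41.1 ± 6.82 and 27.95 ± 0.836 CPM in the control, vehicle-treated HFpEF and TYA-018 groups), fibulin 5, Fbln5 (1.30 ± 0.24), vitronectin, Vtn (0.37 ± 0.073), and Mfge8 (0.38 ± 0.079), a ligand of αv integrins. After TYA-018 they were thrombospondin 1, Thbs1 (-1.16 ± 0.20), Tgfb1 (-0.30 ± 0.062), Ctgf (-0.57 ± 0.13) and fibronectin, Fn1 (-0.64 ± 0.15). Postn (log2 difference 0.64 ± 0.14, edgeR adjusted p = 0.0252) and Vtn (log2 difference 0.35 ± 0.073, edgeR adjusted p = 0.0189) were still above Control-Veh in HFpEF-TYA-018.

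Of 17 other basement membrane genes, 4 were called higher and 1 lower in the model (median log2 fold change 0.29), and 0 higher and 6 lower after TYA-018 (median -0.21). The type IV collagen chain Col4a2 had means of 205 ± 13.8, 386 ± 32.5 and 249.7 ± 14.8 CPM in the control, vehicle-treated HFpEF and TYA-018 groups and rose in the model (log2 difference 0.91 ± 0.076, edgeR adjusted p = 0.000108), as did Sparc (0.99 ± 0.15), a collagen chaperone of the matrix, and Col15a1 (0.59 ± 0.13), while Col4a5 was lower (log2 difference -0.58 ± 0.098, edgeR adjusted p = 0.0023). After TYA-018 Col4a2 (-0.63 ± 0.076), Col4a4 (-0.52 ± 0.11), Sparc (-0.62 ± 0.15) and Fbln2 (-0.51 ± 0.14), a fibulin that binds nidogen, had the smallest p-values. Col4a2 remained higher (0.29 ± 0.075) and Col4a5 lower (-0.55 ± 0.098) in HFpEF-TYA-018 than in the controls.

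Of 23 genes of the dystrophin complex and of the enzymes that place the laminin-binding sugar on dystroglycan, 2 were called higher and 2 lower in the model (median log2 fold change -0.0044), and 3 higher and 1 lower after TYA-018 (median 0.14). With so few genes these counts are near the shares of all genes, and the genes below are given as single values. α-Sarcoglycan, Sgca, a muscle component of the complex, had means of 102 ± 10.9, 80.1 ± 3.27 and 107 ± 5.92 CPM in the control, vehicle-treated HFpEF and TYA-018 groups. It was lower in the model (log2 difference -0.34 ± 0.077, edgeR adjusted p = 0.00982) and higher after TYA-018 (log2 difference 0.42 ± 0.078, edgeR adjusted p = 0.00436). ε-Sarcoglycan, Sgce, its relative in other tissues, went the other way (0.29 ± 0.085 and -0.44 ± 0.085). In the model Dtna (0.44 ± 0.11), which encodes dystrobrevin, was also higher and the sugar kinase Pomk (-0.26 ± 0.087) lower. After TYA-018 the glycosyltransferases Pomgnt1 (0.16 ± 0.051) and B3gnt1 (0.28 ± 0.056) were higher. Pomgnt1 (0.19 ± 0.051) was also above Control-Veh in HFpEF-TYA-018. All values in these 4 paragraphs on lists are log2 fold changes ± SE unless CPM is named, and the genes named were called with edgeR.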

How the data were processed

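Left ventricular poly(A) RNA of 12 mice (4 per group, groups from the labels) was measured by the authors, who trimmed reads with fastp, quantified them with salmon 1.6.0 against GENCODE M25 transcripts of GRCm38.p6 with corrections for sequence, GC content and position, and summed transcripts to genes with tximport. The labels name another build, hg38, and other read settings. The authors deposited for each gene an estimated count without normalisation, TPM, and as another value the effective length in bases. The deposited TPM columns sum to between 937748 and 963745, short of 1e6. All columns were used (0 were left out). There were 8885 genes at 0 in every library.

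Estimated counts were rounded and fitted in R 4.3.3 by edgeR 4.0.16 (filterByExpr, TMM, 1 quasi-likelihood fit of 12 libraries with 9 residual degrees of freedom, Benjamini-Hochberg adjustment over 14333 genes). The 3 pairwise comparisons were tested two-sided. Depth was 61.2 to 83.9 M per library, and the common biological coefficient of variation was 0.232. Scripts were tested on simulated data. Alternatives were DESeq2 1.42.0, other scaling and filters, the deposited lengths as offset, limma 3.58.1 on log2(TPM + pseudocount) with 1 or 0.1, and leaving out each library. Transcripts and positions came from GENCODE M21 and promoters from RefSeq, both on GRCm38.

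Values in every library were given for members called in at least 1 comparison with a mean of at least 1 CPM and for Itgb1, Itga7, Lama2, Lamc1, Nid1, Hspg2 and Dag1. Genes of other lists were named as the 4 called genes of smallest p per list and comparison. A member and a gene of another list are not reported here by name, and the counts include them. The members and the lists were chosen with earlier results of these data known. Separate mice are assumed from the animal numbers in the labels, which give no batch. The numbers of each group lie together, so a cage or date that follows them cannot be told apart from the group.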

Additional observations from a re-analysis of the deposited data

Results flagged for a closer look

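A library was singled out where, among the 4 of its group, its gap to the nearest other library as a part of the group's range exceeded Dixon's critical value. Chance gives this in about 1 of 20 groups, and it occurred in 8 of 123 groups examined (6.50%), with 4 of the 8 in C1. C1 was above the other controls for Lama2 (33.7 CPM against 16.4 to 17.6), Itga4 (3.36 against 1.42 to 1.58), Itgb2 (3.84 against 2.71 to 2.79) and Itga2 (0.543 against 0.307 to 0.336). T4 was below the other treated libraries for Itgb6 (4.70 CPM against 6.97 to 7.28), and T2 was above them for Itga2b (2.14 against 1.49 to 1.56). V1 was below the other HFpEF-Veh libraries for Itgax (0.344 CPM against 0.955 to 1.03) and V3 for Lamc3 (0.456 against 0.533 to 0.539). In C1 the cardiomyocyte marker sum was the lowest and the fibroblast, endothelial and macrophage sums were the highest of the 4 controls, and their part in these values was not tested.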

How the results depend on the processing

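No paired analysis was possible because the groups share none of their animal numbers. Of the calls, 14 of 18 in the model, 8 of 10 after TYA-018 and 2 of 2 between HFpEF-TYA-018 and Control-Veh were kept in all 5 alternatives on counts without lengths, and 10, 7 and 0 in all 12 fits without 1 library. Itga6 in the model and Itgb6 and Lama5 after TYA-018 were kept in all 21 alternatives. With 1 library left out, members called higher and lower numbered 6 to 18 and 4 to 6 in the model, 2 (every fit) and 5 to 10 after TYA-018, and 0 to 4 and 0 to 3 between HFpEF-TYA-018 and Control-Veh. With the deposited lengths as offset, the model gave 8 higher and 1 lower and TYA-018 gave 1 lower, and 0 were higher against Control-Veh. With limma on log2(TPM + 1), log2(TPM + 0.1) and rescaled log2(TPM + 1), 0, 0 and 3 were higher in the model, 1 was lower on each scale, 0 were lower after TYA-018 on each, 0 were higher against Control-Veh on each and 0 were lower on the first pair of scales. DESeq2 called 2 higher and 3 lower against Control-Veh. Calls over all genes changed with the setting as well. With log2(TPM + 1) they were 51 higher and 121 lower in the model and 2228 higher and 68 lower after TYA-018. Between HFpEF-TYA-018 and Control-Veh they were 4 higher and 5 lower on that scale.

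Among the called differences, the direction was kept in every fit without 1 library and turned only with lengths or TPM. In the model, Lama3 was -0.012 and -0.069 with log2(TPM + 1) and log2(TPM + 0.1), and Lamb2 was 0.025 with lengths as offset and 0.072 with rescaled TPM. All genes had medians of -0.00845 with lengths as offset and 0.0247 with rescaled TPM, so Lamb2 stayed turned relative to them. After TYA-018, with log2(TPM + 1) and log2(TPM + 0.1), Itga5 was 0.18 and 0.24, Itgb1 0.010 and 0.011, Lama3 0.034 and 0.17, Lamc1 0.29 and 0.33, and Hspg2 0.36 and 0.37. The median of all genes on the log2(TPM + 1) and log2(TPM + 0.1) scales was -0.069 and -0.17 in the model and 0.17 and 0.34 after TYA-018. Relative to it, the turned directions that remained on these scales were those of Itga5 (0.017), Lamc1 (0.12) and Hspg2 (0.20) with log2(TPM + 1) and of Hspg2 (0.028) with log2(TPM + 0.1). The cause was not tested. Of the 44 members, 7 were under 1 CPM in every group, and low expression and depth were not separated there.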
